A study of Drosophila melanogaster with 10 samples.

Results

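The lysozyme genes LysB, LysC, LysD, LysE, LysP, LysS and LysX form a cluster of paralogs on chromosome arm 3L of Drosophila melanogaster. They were taken by gene symbol from the deposited tables, in which all 7 were present among 13995 genes. The cluster was chosen by the FPKM values of its genes in atf3[76] and y w, several being low in atf3[76], so that contrast is described here with no test. RNA was sequenced from whole male larvae of the 3rd instar, cultured at 25 °C, in 5 genotypes of 2 libraries each. The genotypes were y w, atf3[76] (the mutant), y w, atf3[76];;dfoxo[25J13]/+ (called foxo/+ here), y w, atf3[76];;rel[E20]/+ (rel/+), y w, atf3[76];;atf3[A]/+ (atf3[A]/+), and the control stock y w. All 5 carry y w, and the 4 mutant genotypes share atf3[76]. The labels name no lesion of any allele and do not say what atf3[A] is. The "/+" elements stand in the third-chromosome position of the genotype, and the lysozyme cluster lies on the same chromosome. The labels describe the cluster on neither copy, so the named allele and the rest of its chromosome cannot be told apart. The 2 libraries of each genotype are named biological replicates, and whether separate cultures stand behind them is not said, so a p-value here covers the spread between libraries, which may be technical.

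Lysozymes cut the peptidoglycan wall of bacteria. In Drosophila the genes of this cluster are best known as digestive enzymes rather than as infection-induced defence genes. LysB, LysC, LysD and LysE are transcribed in the midgut of larvae and adults, LysS in the gastric caeca of larvae, LysP in the adult salivary gland, and LysX in the gut around the onset of metamorphosis. Atf3 is a basic leucine zipper transcription factor, foxo a forkhead factor of insulin signalling, and Rel (Relish) the NF-kappa-B factor of the Imd immune pathway.

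The cluster spans 33500 bases. In the deposited BDGP R5 (dm3) coordinates, LysX lies at 3L, 1194738 to 1195302, and LysB at 1207370 to 1207868. LysC (1210484 to 1210971) and LysD (1210716 to 1211196) share 255 bases. LysE (1212826 to 1213406), LysP (1218081 to 1218696) and LysS (1227746 to 1228238) follow. The Ensembl BDGP6 annotation gives each gene 1 exon. It places LysB, LysC, LysE and LysS on the plus strand and LysD, LysP and LysX on the minus strand. It also places 6 of the 7 genes inside mwh, a planar polarity gene, and 0 of these 6 share bases with an mwh exon. LysB, LysD, LysE and LysS have 140 codons, LysP 141 and LysX 142, while LysC is annotated as a pseudogene. The labels do not say whether the libraries keep strand, so reads of LysC and LysD in the shared stretch, and reads of near-identical paralogs, may be divided among them in ways that cannot be told apart.

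Levels are FPKM, sequenced fragments per length of transcript and per mapped fragment of the library. The lowest deposited value is 1 in every library. That value does not show absence: the muscle genes Mhc, up and wupA are listed at 1 in all 10 libraries. The tables hold no counts. The steps between the lowest values of genes of 140 bases gave a depth relative to the deepest library read, which was 0.634 for the first atf3[76] library and 0.506 for the first y w library. In the other 7 libraries read it was between 0.934 and 1.0. For foxo/+ replicate 2, whose step was the largest, it could not be read. Lowest depth below therefore means the lowest among the libraries read. The same pair stood apart in genes listed at 1 whose median elsewhere was 10 FPKM or more: their share was 4.54% in the atf3[76] library, 3.84% in the y w library and 0.136% to 1.27% in the remaining 8. A3-3, the Atf3 gene, stood at 6.09 to 15.1 FPKM in the mutant genotypes and at 3.28 and 4.14 FPKM in y w, so RNA level does not check that label. The eye colour gene w was at 33.7 and 26.3 FPKM in atf3[A]/+ and listed at 1 in the other 8 libraries.

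The cluster as a whole fell into 2 levels. Summed over the 7 genes, FPKM was 1811 and 1042 in atf3[76], 12223 and 16049 in foxo/+, 14276 and 16064 in rel/+, 776 and 627 in atf3[A]/+, and 14783 and 13924 in y w. The means were 1426 ± 544 in atf3[76], 14136 ± 2705 in foxo/+, 15170 ± 1264 in rel/+, 701 ± 106 in atf3[A]/+ and 14354 ± 608 in y w (SD, n = 2 each). The 3 high genotypes overlapped one another, and each of their libraries lay above every library of atf3[76] and of atf3[A]/+. The 7 genes made up 0.417% ± 0.108 of all FPKM in atf3[76], 4.40% ± 0.798 in foxo/+, 4.52% ± 0.223 in rel/+, 0.249% ± 0.0231 in atf3[A]/+ and 4.30% ± 0.531 in y w (SD, n = 2 each). These are bulk samples of whole larvae, in which fewer cells of a type and less RNA per cell cannot be told apart.

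**Figure D1:**
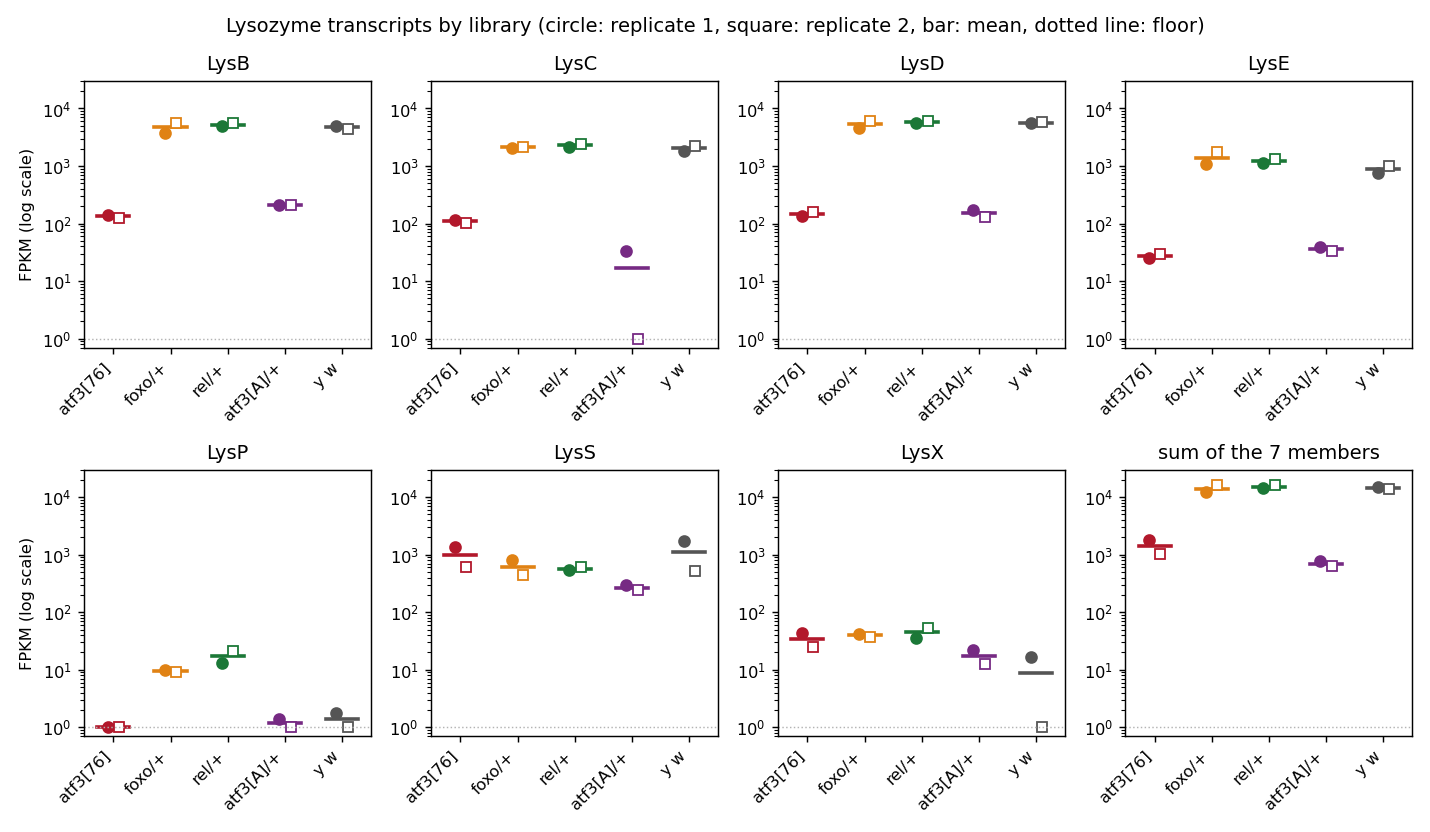
FPKM of each lysozyme gene and of their sum, on a log axis, in the 10 libraries of 5 genotypes; circles are replicate 1, squares replicate 2, bars the mean of both, and the dotted line the floor of 1. LysB, LysC, LysD and LysE are low in atf3[76] and atf3[A]/+ and high in foxo/+, rel/+ and y w, whereas LysP is above 9 FPKM in foxo/+ and rel/+ and at or below 1.77 FPKM elsewhere.

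LysB, LysC, LysD and LysE, the midgut genes, carried that difference. LysD was at 134 and 158 FPKM in atf3[76], 4527 and 6054 in foxo/+, 5496 and 6158 in rel/+, 172 and 128 in atf3[A]/+, and 5482 and 5715 in y w. By level LysD ranked 2 and 3 among all genes in the foxo/+ libraries, 2 and 1 in rel/+, and 9 and 3 in y w. Its ranks were 345 and 272 in atf3[76] and 242 and 293 in atf3[A]/+.

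LysB was at 143 and 125 FPKM in atf3[76], 3706 and 5642 in foxo/+, 4894 and 5495 in rel/+, 212 and 211 in atf3[A]/+, and 4954 and 4483 in y w. LysE was at 25.4 and 29.2 FPKM in atf3[76], 1086 and 1723 in foxo/+, 1146 and 1333 in rel/+, 39.0 and 33.1 in atf3[A]/+, and 770 and 989 in y w. Both genes thus stood low in all 4 libraries of atf3[76] and atf3[A]/+. LysC was at 116 and 104 FPKM in atf3[76], 2058 and 2143 in foxo/+, 2154 and 2396 in rel/+, 32.7 and 1 (the floor) in atf3[A]/+, and 1849 and 2213 in y w. Its low libraries were the same 4, with the atf3[A]/+ pair lowest.

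As a description of the contrast that chose them, the mean level in atf3[76] was 2.61% of that in y w for LysD, 2.83% for LysB, 3.11% for LysE and 5.40% for LysC. The 4 genes summed to 418 and 415 FPKM in atf3[76] and to 13055 and 13400 FPKM in y w. Over all 10983 genes tested in that comparison, 0.0364% passed an adjusted p of 0.05 in limma, and nothing is read from this for the members. The authors' deposited table calls LysB, LysC, LysD and LysE down in atf3[76], LysP and LysS not changed, and LysX QCNP, a code that is not explained in the table.

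The 4 genes did not keep exactly the same proportions. LysB stood at 1.07 and 0.788 times LysD in atf3[76], 0.819 and 0.932 in foxo/+, 0.890 and 0.892 in rel/+, 1.23 and 1.65 in atf3[A]/+, and 0.904 and 0.784 in y w. LysC was at 0.866 and 0.656 times LysD in atf3[76] and 0.190 and 0.00782 in atf3[A]/+, with foxo/+, rel/+ and y w between 0.337 and 0.455. LysE was at 0.190 and 0.185 times LysD in atf3[76], 0.240 and 0.285 in foxo/+, 0.209 and 0.216 in rel/+, 0.227 and 0.259 in atf3[A]/+, and 0.140 and 0.173 in y w. LysE relative to LysD was therefore higher in each mutant library than in either y w library. How the authors divided reads among these paralogs is not stated in the labels, and its part in the ratios was not tested.

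**Figure D2:**
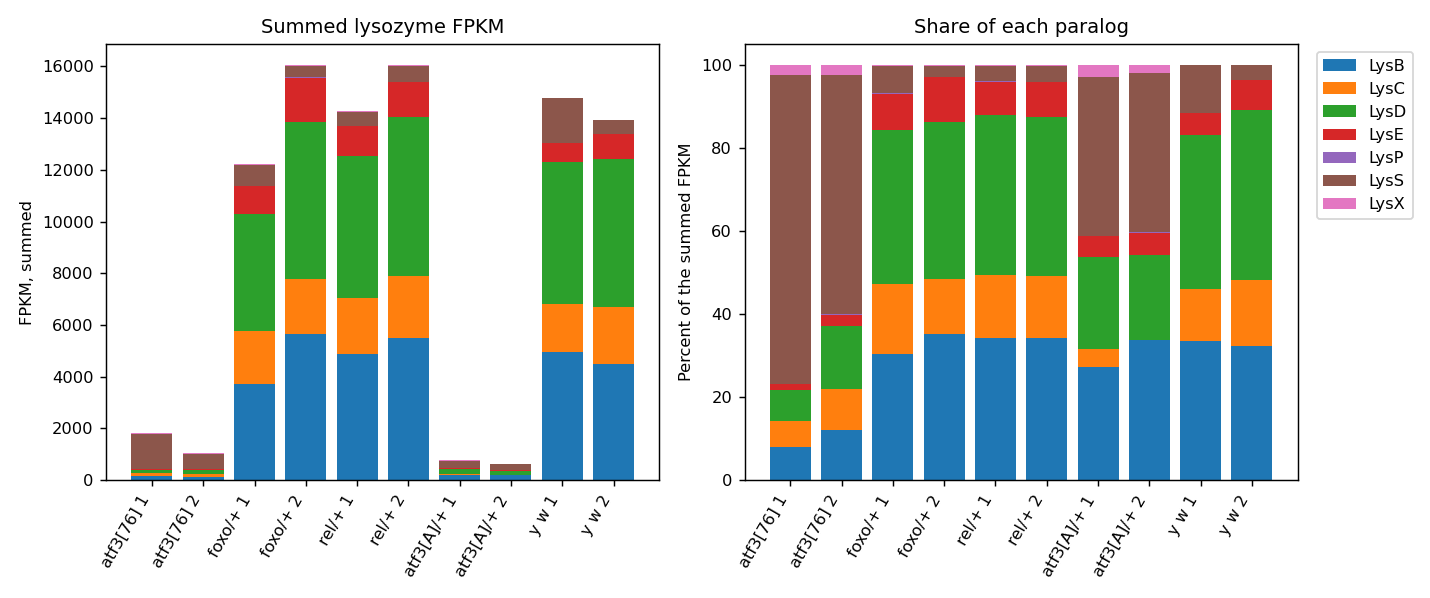
Left, FPKM of the 7 lysozyme genes stacked in each library; right, the same as a percentage of the library's sum. LysS makes up 74.5% and 57.6% of the sum in atf3[76] and 38.3% in both atf3[A]/+ libraries, against 2.74% to 11.6% in foxo/+, rel/+ and y w.

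LysS, the caecal gene, did not follow the midgut genes in atf3[76]. It was at 1350 and 600 FPKM in atf3[76], 795 and 439 in foxo/+, 536 and 609 in rel/+, 297 and 240 in atf3[A]/+, and 1710 and 522 in y w. Replicate 1 was the higher library in atf3[76], foxo/+, atf3[A]/+ and y w. Both atf3[A]/+ libraries lay below the other 8, and foxo/+ replicate 2 also lay below both y w libraries. LysS was thus the largest part of the lysozyme sum in atf3[76] and in atf3[A]/+. Its share averaged 66.1% in atf3[76] (74.5% and 57.6%), 4.62% ± 2.66 in foxo/+, 3.77% ± 0.0278 in rel/+, 38.3% ± 0.00328 in atf3[A]/+ and 7.66% ± 5.53 in y w (SD, n = 2 each).

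LysX was a minor transcript, with its lowest mean in y w. It was at 42.8 and 25.2 FPKM in atf3[76], 41.9 and 37.8 in foxo/+, 36.3 and 52.7 in rel/+, 22.1 and 12.6 in atf3[A]/+, and 16.7 and 1 (the floor) in y w. The y w libraries lay below those of atf3[76], foxo/+ and rel/+ and overlapped those of atf3[A]/+. LysP was at the floor in both atf3[76] libraries, at 9.95 and 9.05 FPKM in foxo/+, at 13.3 and 21.2 in rel/+, at 1.40 and 1 in atf3[A]/+, and at 1.77 and 1 in y w. LysP therefore stood above 9 FPKM in the foxo/+ and rel/+ libraries and near the floor in the other 6.

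The comparison of atf3[A]/+ with y w asks how larvae with atf3[76] and 1 copy of atf3[A] differ from the control stock. LysB, LysD and LysE fell, to 4.48%, 2.68% and 4.10% of their y w means, and these were 3 of the 7 lysozymes, whereas 0.0632% of the 11068 genes tested were lower. The test was limma on log2(FPKM + 1) with Benjamini-Hochberg adjustment over all genes and a threshold of 0.05. On that scale the differences were −4.47 ± 0.25 for LysB, −5.23 ± 0.28 for LysD and −4.56 ± 0.28 for LysE (SE), each with an adjusted p of 0.0126 in limma. Both libraries of atf3[A]/+ were below both of y w for each of the 3. The y w libraries are also those by whose values the cluster was chosen, so these p-values and the count of 3 are not independent of that choice, and the same holds for foxo/+ and rel/+ against y w. LysC had the largest difference of the 7, −7.94 ± 1.28, but with 1 library at the floor it did not pass (limma, adjusted p = 0.155). Its difference was −9.98 without atf3[A]/+ replicate 1 and −5.91 without atf3[A]/+ replicate 2. LysS differed by −1.82 ± 0.59 and did not pass (limma, adjusted p = 0.621). Its difference was −0.96 without y w replicate 1 and −2.67 without y w replicate 2. LysX differed by 1.58 ± 1.03 (limma, adjusted p = 0.757), a value that was 0.01 without y w replicate 2. LysP differed by −0.10 ± 0.30 (limma, adjusted p = 0.951). In atf3[A]/+ the authors' deposited calls were down for LysB, LysD, LysE and also LysS (signed fold change −4.16), which did not pass here. Their call was not changed for LysP and QCNP for LysC and LysX.

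The calls of LysB, LysD and LysE were lost when any 1 of the 4 libraries was left out of the fit of these groups, where adjusted p reached 0.669 and 0 genes in all passed, and none held with the replicate numbers as a block (adjusted p = 0.0815). In a model of all 5 genotypes, which shares 1 estimate of the spread, LysB, LysD and LysE passed with all libraries (adjusted p = 0.000301, 0.000143 and 0.000698 in limma). In that model 3 to 4 of the lysozymes passed with any 1 library left out, and 3 passed without both libraries of lowest depth.

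**Figure D3:**
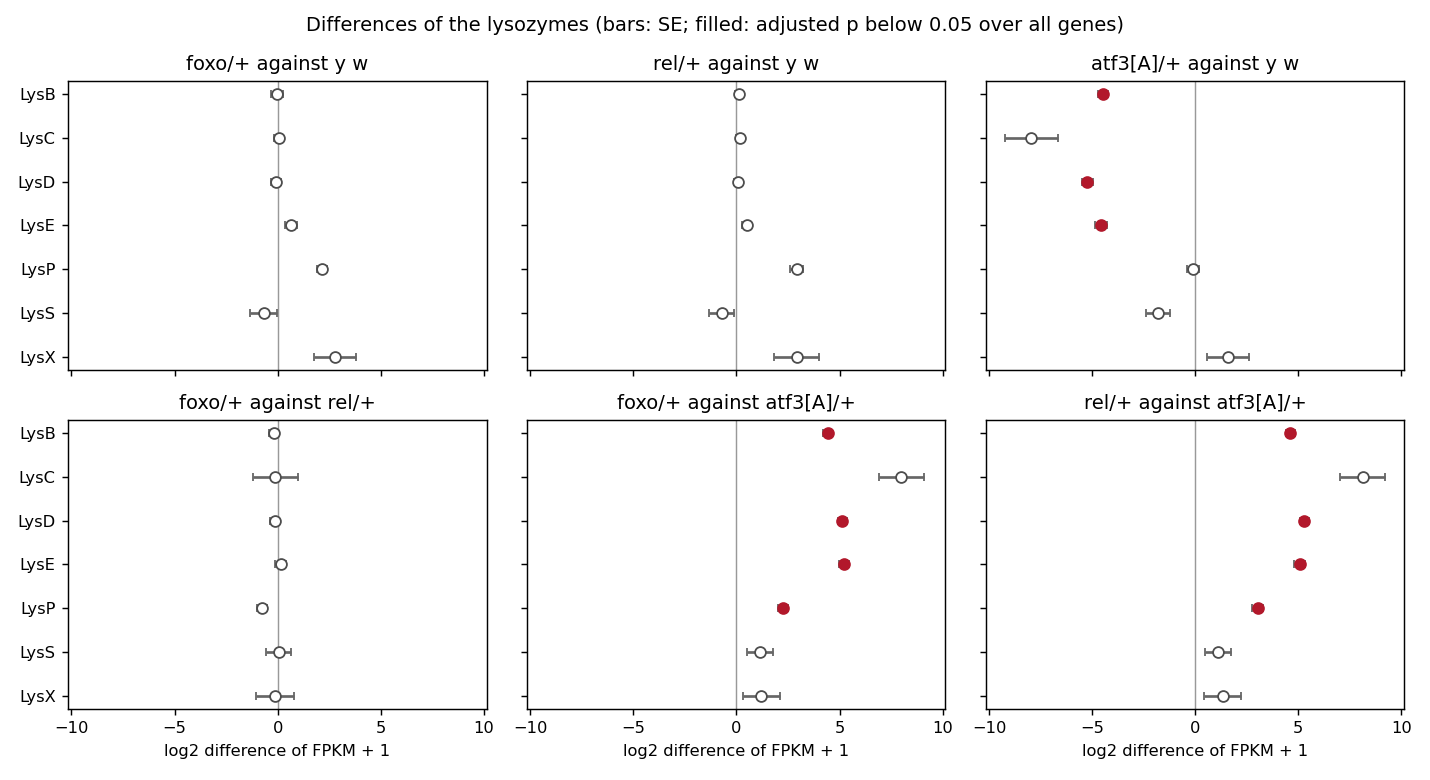
Differences in log2(FPKM + 1) of the 7 lysozyme genes in 6 comparisons, first genotype minus second; bars are standard errors and filled points passed an adjusted p of 0.05 over all genes. LysB, LysD and LysE are filled and near −5 in atf3[A]/+ against y w, and are filled and near 5 in foxo/+ and rel/+ against atf3[A]/+, where LysP is filled too.

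The comparison of foxo/+ with y w sets larvae with atf3[76] and 1 copy of dfoxo[25J13] against the control. Of the 7 lysozymes, 0 passed in limma, where 0.204% of 11274 genes did, and LysP and LysX had an unadjusted p under 0.05. The difference was −0.04 ± 0.28 for LysB, 0.05 ± 0.21 for LysC and −0.10 ± 0.24 for LysD, and 0.65 ± 0.31 for LysE (SE; limma, adjusted p = 0.931, 0.884, 0.811 and 0.327). LysP differed by 2.16 ± 0.25 (limma, adjusted p = 0.104) and passed in the model of all 5 genotypes (adjusted p = 0.0285). LysX differed by 2.78 ± 1.04 (limma, adjusted p = 0.270), which was 1.21 without y w replicate 2. LysS differed by −0.68 ± 0.65 (limma, adjusted p = 0.538). The authors' deposited table calls LysE up by a fold change of 1.6 and LysP up by 6.86 in foxo/+.

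The comparison of rel/+ with y w uses the same y w libraries. Again 0 of the 7 lysozymes passed in limma, beside 0.537% of 11354 genes, and LysP alone had an unadjusted p under 0.05. The difference was 0.14 ± 0.19 for LysB, 0.17 ± 0.20 for LysC, 0.06 ± 0.19 for LysD and 0.50 ± 0.23 for LysE (SE; limma, adjusted p = 0.618, 0.571, 0.842 and 0.233). LysP differed by 2.92 ± 0.32 (limma, adjusted p = 0.0744), and passed in the model of all 5 genotypes (adjusted p = 0.0092) and with the replicate block (adjusted p = 0.0139). LysX differed by 2.91 ± 1.09 (limma, adjusted p = 0.198), which was 1.34 without y w replicate 2. LysS differed by −0.73 ± 0.61 (limma, adjusted p = 0.429). The authors' deposited table calls LysP up by 12.45 in rel/+ and LysE not changed.

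Most genes leaned the same way in both comparisons: the median difference of all genes was 0.32 in foxo/+ and 0.40 in rel/+ against y w, but 0.01 in atf3[A]/+ against y w. With each library centred on its median, LysD stood at −0.53 ± 0.28 in foxo/+ and −0.46 ± 0.20 in rel/+ against y w, LysB at −0.48 ± 0.31 and −0.38 ± 0.18, LysC at −0.38 ± 0.25 and −0.35 ± 0.23, and LysE at 0.21 ± 0.37 and −0.01 ± 0.26 (SE, foxo/+ first). None of these passed in limma, and the sign turned for LysC in foxo/+ and for LysB, LysC, LysD and LysE in rel/+. LysP, with adult salivary gland as its known site, kept its direction when centred, at 1.72 ± 0.20 in foxo/+ (limma, adjusted p = 0.0765) and 2.41 ± 0.27 in rel/+ (limma, adjusted p = 0.0495). Testis markers, all 6 above the floor in some library, leaned with LysP: they summed to 78.8 and 116 FPKM in atf3[76], 170 and 141 in foxo/+, 132 and 180 in rel/+, 80.7 and 43.3 in atf3[A]/+, and 108 and 70.8 in y w. Glue genes of the larval salivary gland summed to 1168 and 2139 FPKM in atf3[76], 4212 and 1101 in foxo/+, 2274 and 7450 in rel/+, 6577 and 2100 in atf3[A]/+, and 2453 and 536 in y w, so that replicates of a genotype lay far apart. The part of either tissue in the level of LysP was not tested.

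Setting the 3 genotypes with a "/+" element against one another uses neither the y w nor the atf3[76] libraries as an arm. Both still enter the spread that the model shares, and the members were chosen with earlier results of these data known. The p-values and counts of lysozymes in these 3 comparisons are thus not independent of that choice. LysB, LysD, LysE and LysP rose in foxo/+ relative to atf3[A]/+, 4 of the 7, where 0.112% of 11558 genes were higher. The differences were 4.43 ± 0.22 for LysB, 5.13 ± 0.22 for LysD, 5.21 ± 0.26 for LysE and 2.26 ± 0.26 for LysP (SE; adjusted p = 0.000391, 0.000218, 0.000391 and 0.0304 in limma's model of all 5 genotypes). LysC differed by 8.00 ± 1.098 and did not pass (limma, adjusted p = 0.0672), though it passed with the libraries centred (adjusted p = 0.0337). Its difference was 10.04 without atf3[A]/+ replicate 1 and 5.96 without atf3[A]/+ replicate 2. Leaving out either library also takes the spread between them out of the fit, so no call is read from these 2 values. LysS differed by 1.14 ± 0.62 and LysX by 1.20 ± 0.91, and neither passed (limma, adjusted p = 0.410 and 0.572). The calls of LysB, LysD and LysE held in all 12 alternatives, with adjusted p from 0.000137 to 0.0247, whereas that of LysP was lost in 9 of the 12.

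The same 4 genes rose in rel/+ relative to atf3[A]/+, where 0.104% of genes were higher. The differences were 4.61 ± 0.22 for LysB, 5.28 ± 0.22 for LysD, 5.07 ± 0.26 for LysE and 3.02 ± 0.26 for LysP (SE; adjusted p = 0.000487, 0.000266, 0.000595 and 0.00796 in limma). LysC differed by 8.11 ± 1.098 and did not pass (limma, adjusted p = 0.0838; 0.0358 with the libraries centred). Without atf3[A]/+ replicate 1 the difference of LysC was 10.15 and without replicate 2 it was 6.07, and again no call is read from these. LysS and LysX differed by 1.09 ± 0.62 and 1.34 ± 0.91 and did not pass (limma, adjusted p = 0.341 and 0.418). The calls of LysB, LysD and LysE held in all 13 alternatives, and that of LysP was lost in 3, with adjusted p up to 0.0952. These comparisons share the atf3[A]/+ libraries.

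Between foxo/+ and rel/+, 0 of the 7 lysozymes passed in limma, where 0.0346% of genes did, and LysP alone had an unadjusted p under 0.05. LysP differed by −0.76 ± 0.26, lower in foxo/+ in both libraries (limma, adjusted p = 1.0). LysB, LysC, LysD and LysE differed by −0.18 ± 0.22, −0.11 ± 1.098, −0.15 ± 0.22 and 0.15 ± 0.26 (SE). Between atf3[A]/+ and atf3[76], described with no test, LysB, LysC, LysD and LysE summed to 455 and 373 FPKM in atf3[A]/+ and 418 and 415 FPKM in atf3[76]. Within that sum LysB was 1.58 times its atf3[76] mean in atf3[A]/+, LysD 1.03 times and LysE 1.32 times, whereas LysC was at 15.4% and LysS, outside it, at 27.5%.

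The genes around the cluster differed less from y w than LysB, LysC, LysD and LysE did in atf3[76] and atf3[A]/+. They were also far lower in y w, the highest being CG9119 at 36.3 and 29.2 FPKM. With the floor of 1, falls as large as those of the lysozymes could not have shown in them. The cluster was also chosen for low values in atf3[76], so the contrast in size is a description and not a test. Of 16 other genes within 20 kb of the cluster, 2 were at the floor in every library, and 0 of the other 14 passed in any of the 4 comparisons with y w in limma. An unadjusted p under 0.05 was reached by 1 of them for atf3[76], 2 for foxo/+, 6 for rel/+ and 1 for atf3[A]/+. Over all genes tested the share with an unadjusted p under 0.05 was 3.56% for atf3[76], 18.1% for foxo/+, 25.4% for rel/+ and 7.7% for atf3[A]/+ against y w. It was 1.38% for foxo/+ against rel/+, and 17.2% for foxo/+ and 21.1% for rel/+ against atf3[A]/+. Without CG9192, the other 13 differed from y w by −0.71 to 0.44 for atf3[76], −0.60 to 0.73 for foxo/+, −0.83 to 0.84 for rel/+ and −0.46 to 0.71 for atf3[A]/+. CG9192 was at the floor in both y w libraries and differed by 1.57 for atf3[76], 2.15 for foxo/+, 2.28 for rel/+ and 1.11 for atf3[A]/+. The host gene mwh was at 2.12 and 1.89 FPKM in atf3[76], 4.31 and 7.40 in foxo/+, 4.25 and 5.61 in rel/+, 5.99 and 8.25 in atf3[A]/+, and 2.67 and 5.55 in y w. Both atf3[76] libraries thus lay below those of y w and both atf3[A]/+ libraries above them. In the deposited coordinates mwh overlaps 5 of the lysozyme genes, LysB and LysX not among them. The part of mwh in the level of the lysozymes was not tested. The atf3[A]/+ libraries overlapped those of foxo/+.

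**Figure D4:**
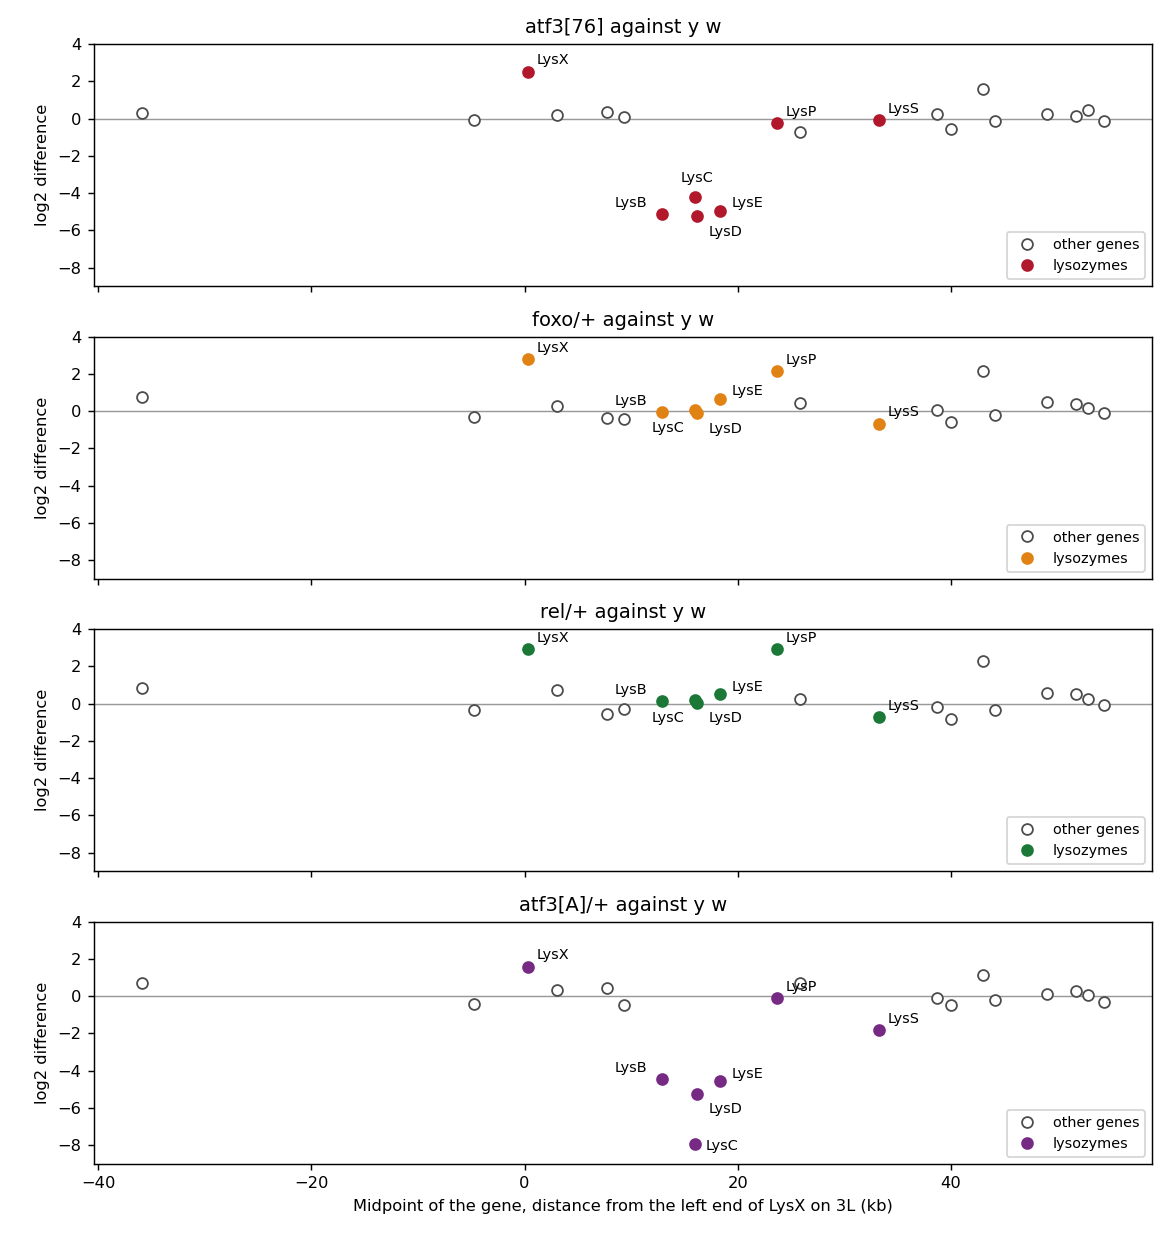
Difference in mean log2(FPKM + 1) from y w of the 7 lysozyme genes (filled, named) and 14 neighbouring genes (open), against the gene's distance in kb along 3L from the left end of LysX, for the 4 mutant genotypes. LysB, LysC, LysD and LysE, which lie next to one another between LysX and LysP, are below −4 in atf3[76] and atf3[A]/+, while the neighbours on both sides lie between −0.83 and 2.28 in all 4 panels.

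Lysozyme genes elsewhere in the genome were low, with none above 59.1 FPKM in any library. Of 10 such genes, CG11159, CG30062, CG6421 and CG6429 were at the floor in every library, and the other 6 were tested. In the 4 comparisons with y w 0 of the 6 passed in limma, and 1 for atf3[76], 1 for foxo/+, 3 for rel/+ and 1 for atf3[A]/+ had an unadjusted p under 0.05, beside 3.56%, 18.1%, 25.4% and 7.7% of all genes. Their median difference from y w was −0.11 for atf3[76], −0.11 for foxo/+, −0.26 for rel/+ and −0.41 for atf3[A]/+, beside 0.11, 0.32, 0.40 and 0.01 over all genes tested. Summed over the 10, FPKM ranged from 109 to 138 in the 10 libraries, a sum led by CG16799 and CG6426.

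CG16799 was at 40.0 and 59.1 FPKM in atf3[76], 50.6 and 51.1 in foxo/+, 52.3 and 57.8 in rel/+, 45.7 and 44.3 in atf3[A]/+, and 39.6 and 47.5 in y w. CG6426 was at 38.9 and 42.9 FPKM in atf3[76], 42.3 and 43.0 in foxo/+, 36.7 and 41.4 in rel/+, 37.4 and 32.7 in atf3[A]/+, and 58.4 and 31.4 in y w. CG16799 was higher in both foxo/+ and both rel/+ libraries than in either y w library, and atf3[76] and atf3[A]/+ overlapped y w. For CG6426 each mutant genotype overlapped y w. CG7798 was at 6.30 to 14.2 FPKM in the mutant libraries and 16.2 and 17.2 in y w, CG8492 at 3.66 to 14.6 in the mutant libraries and 4.85 and 6.55 in y w, and CG14823 at 3.89 to 10.46 in the mutant libraries and 11.7 and 8.79 in y w. CG7798 thus lay below both y w libraries in each mutant library, with a difference of −1.14 in rel/+ that did not pass (limma, adjusted p = 0.149). CG16756 stayed below 5 FPKM.

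Other genes of the gut were set beside the lysozymes by library. Among 26 serine endopeptidases of the midgut (trypsins and Jonah proteases, which digest protein), 0 passed in the 4 comparisons with y w in limma. An unadjusted p under 0.05 was reached by 3 of the 26 for atf3[76], 7 for foxo/+, 4 for rel/+ and 8 for atf3[A]/+, where 3.56%, 18.1%, 25.4% and 7.7% of all genes reached it. Their median difference was −0.04 for atf3[76], −0.68 for foxo/+, −0.71 for rel/+ and −0.82 for atf3[A]/+. Their summed FPKM was 62780 and 19241 in atf3[76], 18972 to 26985 in foxo/+, rel/+ and atf3[A]/+, and 57410 and 23121 in y w. The high libraries were atf3[76] replicate 1 and y w replicate 1, which are also those of lowest depth among the libraries read. LysS leaned with them in both genotypes: replicate 1 over replicate 2 was 2.25 for LysS and 3.26 for the endopeptidases in atf3[76], and 3.28 for LysS and 2.48 for the endopeptidases in y w. In the other genotypes LysS and the endopeptidases leaned apart. Their ratios were 1.81 and 0.959 in foxo/+, 0.88 and 1.22 in rel/+, and 1.24 and 0.867 in atf3[A]/+ (LysS first). LysB, LysC, LysD and LysE did not lean with the endopeptidases in atf3[76] and y w, with a summed ratio of 1.01 in atf3[76] and 0.974 in y w. The part of depth in the level of LysS was not tested. Jon99Ci, a Jonah protease, was the only gene of these lists called in any comparison. It fell in foxo/+, at 18.9 and 12.8 FPKM, against 78.8 and 64.7 FPKM in atf3[A]/+ (−2.13 ± 0.25; limma, adjusted p = 0.0346), and the call was lost in 8 of 12 alternatives.

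**Figure D5:**
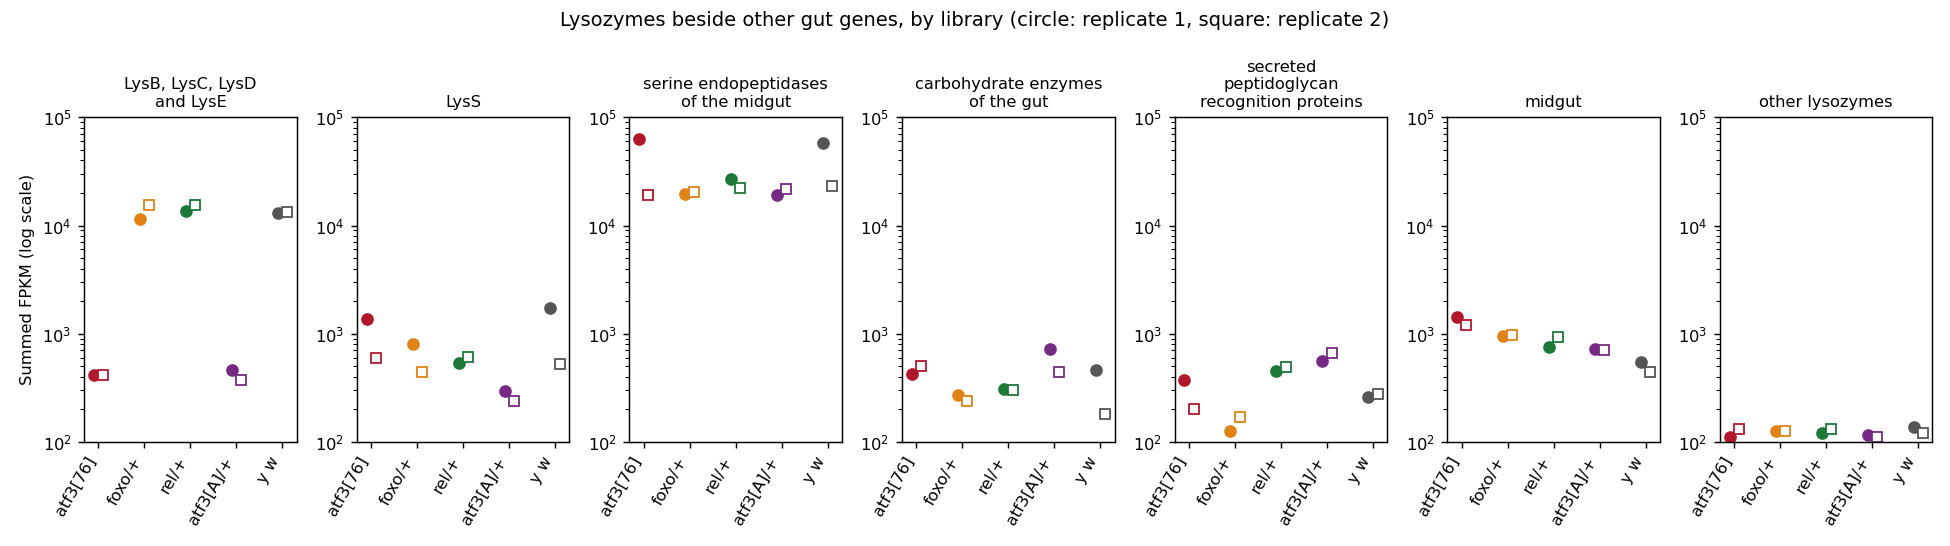
Summed FPKM, on a log axis, of LysB to LysE, of LysS and of 5 lists of other genes in each library; circles are replicate 1 and squares replicate 2. The 4 midgut lysozymes sum to between 373 and 455 FPKM in atf3[76] and atf3[A]/+ and to between 11377 and 15563 FPKM in the other genotypes, while the serine endopeptidases and LysS are highest in replicate 1 of atf3[76] and of y w.

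Carbohydrate enzymes of the gut (amylases and maltases) were led by Amy-d and Amy-p, and 0 of 12 passed in any comparison in limma. An unadjusted p under 0.05 was reached by 0 to 5 of them in a comparison, beside 1.38% to 25.4% of all genes. Their summed FPKM was 425 and 500 in atf3[76], 270 and 237 in foxo/+, 309 and 302 in rel/+, 720 and 438 in atf3[A]/+, and 459 and 180 in y w. The genotypes with low midgut lysozymes were thus not low in these enzymes. Of 8 secreted peptidoglycan recognition proteins, which bind or cut peptidoglycan, 7 were tested and 0 passed in limma, while 0 to 5 reached an unadjusted p under 0.05 against the same background. PGRP-SC2, an amidase of the gut, was at 285 and 133 FPKM in atf3[76], 40.1 and 55.9 in foxo/+, 111 and 218 in rel/+, 259 and 257 in atf3[A]/+, and 90.8 and 47.4 in y w. PGRP-SC1a was at 9.78 and 3.50 FPKM in atf3[76], 3.47 and 28.8 in foxo/+, 146 and 118 in rel/+, 124 and 191 in atf3[A]/+, and 62.9 and 98.3 in y w. Neither gene shared the genotype order of the midgut lysozymes.

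Markers of the midgut, the tissue in which LysB to LysE are transcribed, were measured for all 10 genes listed. Their summed FPKM was 1419 and 1211 in atf3[76], 946 and 968 in foxo/+, 750 and 934 in rel/+, 721 and 700 in atf3[A]/+, and 544 and 441 in y w. None of the 10 was at the floor throughout, and 0 passed in limma. Their median difference from y w was 0.38 for atf3[76], 0.44 for foxo/+, 0.33 for rel/+ and 0.22 for atf3[A]/+. Of the 10, 2 had an unadjusted p under 0.05 in each comparison with y w. The share of all genes that did so was 3.56%, 18.1%, 25.4% and 7.7% in the same order. The high sum in atf3[76] rested on CG32302, which was at 782 and 539 FPKM in atf3[76], 251 and 303 in foxo/+, 197 and 245 in rel/+, 245 and 202 in atf3[A]/+, and 90.9 and 71.5 in y w. Without it the other 9 summed to 637 and 673 FPKM in atf3[76], 695 and 664 in foxo/+, 552 and 689 in rel/+, 476 and 498 in atf3[A]/+, and 453 and 370 in y w. With or without CG32302 the sum lay above both y w libraries in every mutant library. Its 2 highest genes were CG32302 and CG5932, so markers of low level count for little in it. CG7678, also on the list, was below y w, by −0.18 for atf3[76], −0.12 for foxo/+, −0.49 for rel/+ and −0.64 for atf3[A]/+. The part of midgut tissue in the level of LysB to LysE was not tested. Genes of the peritrophic matrix, the lining of the gut, summed to 1957 and 1316 FPKM in atf3[76], 1365 and 1697 in foxo/+, 1949 and 1305 in rel/+, 940 and 1181 in atf3[A]/+, and 1506 and 1634 in y w. Markers of the peritrophic matrix, fat body, salivary gland, muscle and testis had 0 calls in limma. In foxo/+ and rel/+ against y w, 4 of 6 testis markers had an unadjusted p under 0.05, beside 18.1% and 25.4% of genes. Against atf3[A]/+ it was 5 of 6 in each, beside 17.2% and 21.1%, and in the other comparisons 0. Salivary gland markers reached it for 2 of 6 in rel/+ and 3 of 6 in atf3[A]/+ against y w, beside 25.4% and 7.7%. The peritrophic, fat body and muscle lists had at most 1 in a comparison. Fat body markers summed to 5813 to 12445 FPKM and muscle markers to 1662 to 2759 FPKM over the 10 libraries.

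Outside the family, CG4783 had a profile near that of the lysozyme sum. Likeness was the root mean square difference of centred log2(FPKM + 1) over the 10 libraries, among 4549 genes with a mean of at least 10 FPKM, for which the median was 1.90. CG4783 was nearest, at 0.719, beside 0.714 for LysB, 0.768 for LysD and 0.821 for LysE, which are parts of the sum. LysS made up 74.5% and 57.6% of that sum in atf3[76], so nearness to it does not rank likeness to LysB, LysC, LysD and LysE. In atf3[76] and atf3[A]/+ the values of CG4783 also lay near the floor. CG4783 was at 2.34 and 5.92 FPKM in atf3[76], 24.1 and 20.03 in foxo/+, 28.8 and 26.3 in rel/+, 2.57 and 1.26 in atf3[A]/+, and 20.3 and 31.7 in y w. It lies on 3R, away from the cluster, and overlaps another gene. The next were CG42306 (1.15), snoRNA:Psi18S-301 (1.37), CG17134 (1.43) and DptB (1.46), of which CG42306 had 16.8 FPKM in 1 of the atf3[76] libraries and the floor in the other. Of the cluster, LysP (1.43), LysC (1.65), LysS (1.77) and LysX (2.34) were farther from the sum, and LysX was farther than a flat profile would be (1.94).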

How the data were processed

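RNA-seq values of 10 libraries were read from 4 deposited tables, each with 1 mutant genotype and y w. Per the submitters' processing notes, the authors used TopHat 1.3.2 and Cufflinks 1.1.0 on BDGP R5 (dm3), and deposited FPKM values with a floor of 1; strandedness, annotation and the handling of reads with several matches are not stated in the labels. Fold changes (a score) and calls in the deposited tables were copied and not tested. Of 14148 records, those sharing 1 of 94 symbols were collapsed, leaving 13995 genes.

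Differences were tested with limma 3.58.1 (R 4.3.3) on log2(FPKM + 1), a scale that understates the change of low genes, over genes with a value above 1 in some library of that fit. Each mutant genotype was fitted with y w alone; comparisons among foxo/+, rel/+ and atf3[A]/+ came from 1 model of all 5 genotypes. Adjustment was Benjamini-Hochberg over all genes tested, at 0.05. The method was tested on simulated data. FPKM tables hold no counts, so no counting interval is given. Same-numbered libraries were not paired: deviations from group means correlated between −0.233 and 0.442, and the labels state no pairing.

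The members and all gene lists were chosen with earlier results of these data known. Genes named are the 7 members, label checks, other lysozymes above 5 FPKM, genes called or among the top 2 by level in other lists, the 5 nearest profiles, and neighbours within 20 kb. Protein identity and promoter motifs were not analysed here. Alternatives covered pseudocount, filter, centring, replicate block, model and single libraries.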

Additional observations from a re-analysis of the deposited data

How the results depend on the processing

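With 2 libraries a group, counts of calls moved with the processing, and the cause was not tested. For the lysozymes, 31 log2 differences were recomputed in 12 to 16 settings each, which gave 457 values that are not independent of one another. Of these values, 378 kept direction and call, 29 lost the call, 27 gained one and 23 changed sign. All that changed sign were differences that did not pass.

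Over all genes, atf3[76] against y w gave 4 calls, and 0 with no pseudocount, 9 with a mean of at least 5 FPKM, 8 when centred, 34 with the replicate block, 35 in the model of all 5 genotypes and 42 there without the pair of libraries of lowest depth, y w replicate 1 and atf3[76] replicate 1 (chosen after seeing the data, as were the model's single-library and crossed fits). For foxo/+ against y w (23 calls) these were 40 with no pseudocount, 3 with a pseudocount of 5, 35 with the higher mean, 42 with the block, 45 in the model and 36 without that pair, with 1 lysozyme called in each of these last 2 fits. For rel/+ against y w (61) they were 120 with no filter and 170 with the block, and 1 lysozyme passed with the higher mean, when centred, with the block and in the model, and 2 without that pair. For atf3[A]/+ against y w (41) they were 19 with a pseudocount of 5, 16 with no filter (1 lysozyme), 74 with the higher mean, 0 with the block (0 lysozymes) and 26 in the model. For foxo/+ against rel/+ (4) they were 9 with no filter, 2 with the higher mean, 12 in a fit of the 2 groups and 7 without that pair. For foxo/+ against atf3[A]/+ (22) they were 35 with no filter and 14 with the block. For rel/+ against atf3[A]/+ (16) they were 39 with no filter, 26 when centred, and 1548 with replicate numbers crossed as a block (correlation of same numbers −0.233), where all 7 lysozymes passed. The replicate block changed no other count of lysozyme calls by over 1.5 times.

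Leaving out 1 library in fits of the 2 groups gave 0 to 0 calls for atf3[76], 0 to 184 for foxo/+, 0 to 236 for rel/+ and 0 to 0 for atf3[A]/+ against y w. In the model of all 5 genotypes, leaving out a y w library gave 17 to 71 calls for atf3[76], 14 to 87 for foxo/+, 22 to 94 for rel/+ and 22 to 70 for atf3[A]/+ against y w, and leaving out a mutant library gave 46 to 118, 15 to 30, 12 to 44 and 23 to 24 in the same order. It gave 8 to 17 for foxo/+ against rel/+, 19 to 27 for foxo/+ and 12 to 27 for rel/+ against atf3[A]/+. Lysozymes called ranged over 0 to 0 for foxo/+, 0 to 2 for rel/+ and 0 to 4 for atf3[A]/+ against y w, and over 3 to 4 for foxo/+ and 4 to 5 for rel/+ against atf3[A]/+. A lone library is assumed to vary like the others.

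Signs turned when centred for LysE (−0.012), LysB (−0.38), LysC (−0.35) and LysD (−0.46) in rel/+ and LysC (−0.38) in foxo/+ against y w, and without the pair of lowest depth for LysB (0.028), LysC (−0.075) and LysS (0.18) in foxo/+ and LysS (0.13) in rel/+. Leaving out single libraries, foxo/+ against y w ranged from −0.35 to 0.26 for LysB (0.028 without y w replicate 1), −0.075 to 0.18 for LysC, −0.31 to 0.11 for LysD and −1.53 to 0.18 for LysS, and rel/+ against y w from −0.026 to 0.14 for LysD and −1.58 to 0.13 for LysS.

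Scaled to one median, the lysozyme sum was 12933 in rel/+, 809 in atf3[A]/+ and 16627 in y w. Without LysD and LysE (LysC, LysP and LysS, which overlap other genes too, were kept) it was 7441 in foxo/+, 8103 in rel/+, 515 in atf3[A]/+ and 7875 in y w, and the share of LysS was 8.66% in foxo/+, 7.06% in rel/+, 52.1% in atf3[A]/+ and 13.6% in y w. Single libraries gave sums of 1042 to 1811 in atf3[76], 12223 to 16049 in foxo/+, 14276 to 16064 in rel/+, 627 to 776 in atf3[A]/+ and 13924 to 14783 in y w.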
